A study of Mus musculus with 72 samples.

Results

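The genes described here are the neighbors of *Arntl*, the gene that encodes BMAL1 and that was disrupted in the KO mice. They are the protein-coding genes whose annotated start lies on chromosome 7 within 10 Mb on either side of *Arntl* (chr7:103207465-123314126, GRCm38, GENCODE annotation), *Arntl* itself left out. Of 333 such genes, 125 had a mean normalized count above 5 in gastrocnemius, and these 125 members stand beside 903 other protein-coding genes of chromosome 7 and 16199 genes of any chromosome that passed the same filter, of 55401 in the tables. Of the 208 genes of the window that did not pass, many are silent in muscle, since 155 of the 333 are olfactory receptor genes and 0 of those are members. There were 63 members at lower and 62 at higher coordinates than *Arntl* (chr7:113207465-113314126).

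RNA-Seq was performed on gastrocnemius of male mice, collected at ZT1, early in the light phase. At 10 weeks of age there were 6 WT, 6 *Bmal1*-KO and 7 KO+AAV libraries, and at 40 weeks 5 of each. The KO mice carry a germline *Arntl* knockout on both chromosomes, were bred from heterozygous parents, and lack BMAL1 in every tissue, the WT mice have both wild-type copies, and the KO+AAV mice carry the same knockout and received, at postnatal day 5, an AAV9 vector with HA-tagged *Bmal1* under the muscle promoter CK6. Further libraries came from gastrocnemius of 3 KO+GFP mice (the same knockout with AAV9 carrying GFP under CK6) and 3 KO control mice at 10 weeks, and from liver, heart, white fat and lung at 40 weeks, with 4 KO and 4 KO+AAV mice for each tissue. KO and KO+AAV mice thus carry the same targeted allele and differ in the vector, whose promoter restricts BMAL1 to muscle. The labels do not state that libraries of one group came from separate animals, and P values then measure the spread between these libraries. They do not say which libraries of different tissues share an animal either, and replicate numbers are used here as names only.

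A targeted allele is inherited together with the stretch of chromosome around it. In a line made in stem cells of one strain and crossed to another, genes near the target can keep the sequence variants of the first strain in every mouse that is homozygous for the allele, and recombination shortens this stretch over generations. Such flanking genes can differ between knockout and wild-type mice whether or not the targeted protein acts on them. Neither the labels nor the methods give genotypes of the flanking segment or the number of backcrosses, and in the comparison of WT with KO mice the loss of BMAL1 and the flanking segment cannot be told apart.

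Reads counted on genes numbered 9325122 to 41733282 in the 34 main gastrocnemius libraries, with the 10 ICBR libraries (all at 10 weeks) deeper than the 24 Novogene libraries, 6754312 to 8515400 in the GFP experiment and 36903079 to 50755829 in the other tissues. The 8 skeletal muscle markers (*Acta1*, *Ckm*, *Myh4* and others) were above 0 in each of the main gastrocnemius groups and summed to between 1138050 and 3261290 normalized counts per library. *Arntl* itself, counted over the whole gene with its undeleted exons, was higher in WT than in KO muscle at 10 weeks by 1.14 on the log2 scale (exact permutation test within sequencing site, two-sided, P = 0.005, the smallest possible) and did not separate KO+AAV from KO (difference -0.04, exact permutation P = 0.77). At 40 weeks WT exceeded KO+AAV by 0.86 (exact permutation P = 0.0079, the smallest possible), but WT and KO differed by 0.38 (exact permutation P = 0.27), and the KO library of replicate 2 held 1039 normalized counts against 308 to 395 in the other 4 and 480 to 608 in WT. Without it the difference was 0.70 (exact permutation P = 0.0079). In heart, the KO library of replicate 2 held 859141 counts of the liver gene *Alb* against 153 to 216 in the other 7 libraries.

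Many of the flanking genes differed between WT mice and the mice with the KO allele. The largest fold changes lay in a TRIM gene cluster and in single genes scattered over the window. Several of these genes passed the filter only through the group where they were high. Gastrocnemius libraries of all 6 groups were fitted in one limma model of log2(normalized count + 1) with sequencing site as a covariate, and a gene is called here when its Benjamini-Hochberg adjusted P over all genes tested is under 0.05. Between WT and all KO-allele libraries (KO and KO+AAV, both ages weighted alike), 53 of 125 members were called (42.4%), against 27.4% of all genes tested and 27.5% of the other chromosome 7 genes. Among the 118 members with a mean above 5 both in the WT and in the KO-allele libraries, 48 were called (40.7%), against 27.1% of all genes with this property, a subset chosen after seeing the data that leaves out genes low in either group. There were 30 members higher in WT (24.0%, against 13.7% of all genes) and 23 lower (18.4%, against 13.7%). The 30 include *Trim5*, *Trim30d*, *Gvin1* and *Syt9* and the 23 include *Trim34b*, which passed the filter only through that group and had to differ. The median log2 fold change over the members was 0.0026 and that over all genes -0.0084, and the median absolute log2 fold change was 0.22 for members, 0.18 for all genes and 0.17 for the other chromosome 7 genes. Within the Novogene libraries alone 34 of 123 members were called (27.6%, against 16.8% of all genes), and within the 10 ICBR libraries alone, an alternative chosen after seeing the data, 6 of 117 (5.13%, against 4.36%).

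The counts for each age and KO group were as follows. The 125 members include *Trim5*, *Trim30d*, *Gvin1*, *Syt9* and *Trim34b*, which passed the filter only through the group where they were high. The shares below, in each direction too, are thus descriptions only. At 10 weeks, 20 members (16.0%) were called between WT and KO, against 8% of all genes and 7.75% of the other chromosome 7 genes. Of these, 15 were higher in WT (12%, against 4.26% of all genes) and 5 lower (4.0%, against 3.74%). Between WT and KO+AAV at 10 weeks, 16 members (12.8%) were called, against 5.15% of all genes and 5.32% of the rest of chromosome 7. These 10-week counts moved with the libraries and the window. With the Novogene libraries alone they were 7 (5.69%, against 1.85% of all genes) and 3 (2.44%, against 0.529%), with the ICBR libraries alone 5 (4.27%, against 3.76%) and 2 (1.71%, against 2.07%), and with WT and KO fitted without the other groups 31 (25.6%, against 13.6%). Among the 50 members within 5 Mb they were 5 (10.0%) and 3 (6.0%), near the shares of all genes. At 40 weeks, 42 members (33.6%) were called between WT and KO, against 23.5% and 23.9%. Between WT and KO+AAV at 40 weeks 28 members (22.4%) were called, against 12.5% and 13.2%. Comparisons with KO and with KO+AAV share their WT libraries, so their counts are given side by side and their overlap is not a result. The ages share no library, and 14 members were called between WT and KO at both, which is 70.0% of those called at 10 weeks and 33.3% of those called at 40 weeks, 14 of 14 in the same direction. Over all genes the shares were 74.7% and 25.4%, with 99.8% in the same direction. For WT and KO+AAV 9 members were called at both ages, 56.25% and 32.1%, 9 of 9 in the same direction, against 52.2% and 21.6% of all genes with 99.5% in the same direction.

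**Figure D1:**
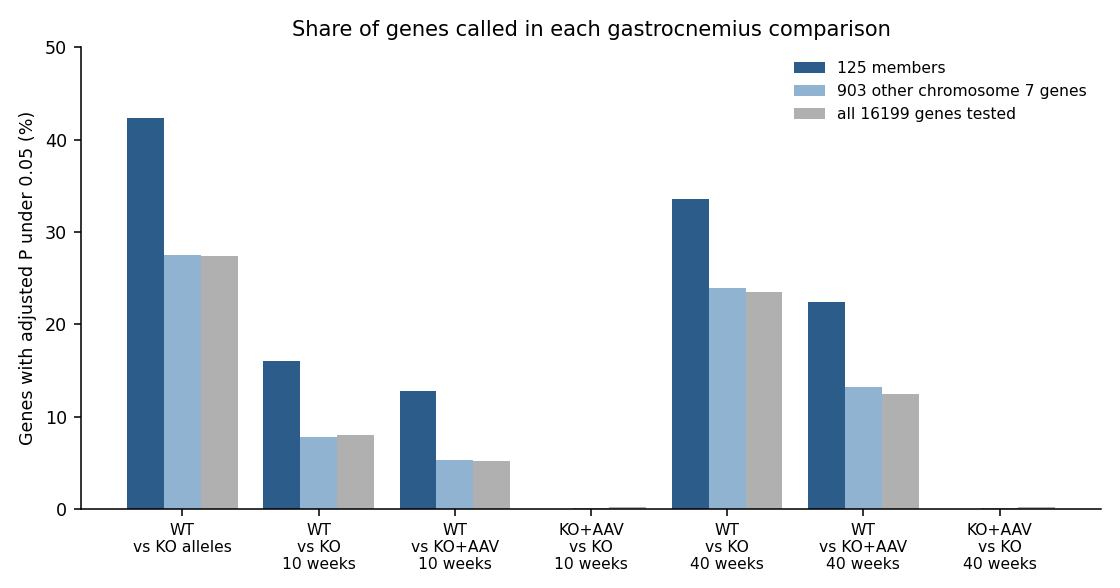
Share of genes called at an adjusted P under 0.05 (y axis, percent) in each gastrocnemius comparison (x axis), with dark bars for the 125 members, light bars for the 903 other protein-coding genes of chromosome 7 and gray bars for all 16199 genes tested. The member share was above both others in the 5 comparisons with WT, for example 42.4% against 27.5% and 27.4%, and 0 members were called between KO+AAV and KO. The members include some that passed the filter only through the group where they were high, so these shares are descriptions only.

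Large differences were found for 7 members, which had an absolute log2 fold change above 2 and were each called. They make up 5.6% of the members, against 0.858% of all genes and 0.332% (3 genes) of the rest of chromosome 7. Of the 7, *Trim5*, *Trim30d*, *Gvin1* and *Syt9* had a mean above 5 in the WT but not in the KO-allele libraries and *Trim34b* in the KO-allele but not in the WT libraries, so that these 5 passed the filter through the group where they were high and had to differ. The 5.6% is a description only. Of the 118 members with a mean above 5 in both, 2 exceeded 2 (1.69%), *Trim12a* and *Tmc7*, and 89 of 15694 genes did (0.567%). The 11 WT and 23 KO-allele libraries did not overlap in range for 4 members (3.2%), *Trim34b*, *Spon1*, *Tmc7* and *Vwa3a*, against 0.698% of all genes and 0.221% (2 genes) of the rest of chromosome 7, and *Trim34b* is again one that had to differ. Most called members changed less, with absolute log2 fold changes from 0.13 to 4.31 (median 0.68) and 16 above 1.

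The share called did not fall steadily with distance from *Arntl*, and the sides differed in where it was highest. Within 1 Mb, 6 of 10 members were called (60.0%), between 1 and 2.5 Mb 3 of 12 (25.0%), between 2.5 and 5 Mb 10 of 28 (35.7%), and between 5 and 10 Mb 34 of 75 (45.3%). Over these 4 distances in turn, the counts at lower coordinates were 1 of 4 (25.0%), 2 of 9 (22.2%), 6 of 19 (31.6%) and 16 of 31 (51.6%). At higher coordinates they were 5 of 6 (83.3%), 1 of 3 (33.3%), 4 of 9 (44.4%) and 18 of 44 (40.9%). The 16 called at lower coordinates between 5 and 10 Mb include *Trim5*, *Trim30d*, *Trim34b*, *Gvin1* and *Syt9*. These passed the filter only through the group where they were high and had to differ, so shares that include them are descriptions only. In 10 Mb bins of chromosome 7 the share was 40.4% between 100 and 110 Mb and 40.7% between 110 and 120 Mb, but bins far from *Arntl* were as high, with 50% (7 of 14 genes) between 50 and 60 Mb and 46.7% (14 of 30) between 60 and 70 Mb. Over the genome, 14 of 217 bins with at least 20 protein-coding genes reached the 42.4% of the members (range 7.41 to 59.1%, median 29.2%). Whole chromosomes ranged only from 26.3 to 32.1%.

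**Figure D2:**
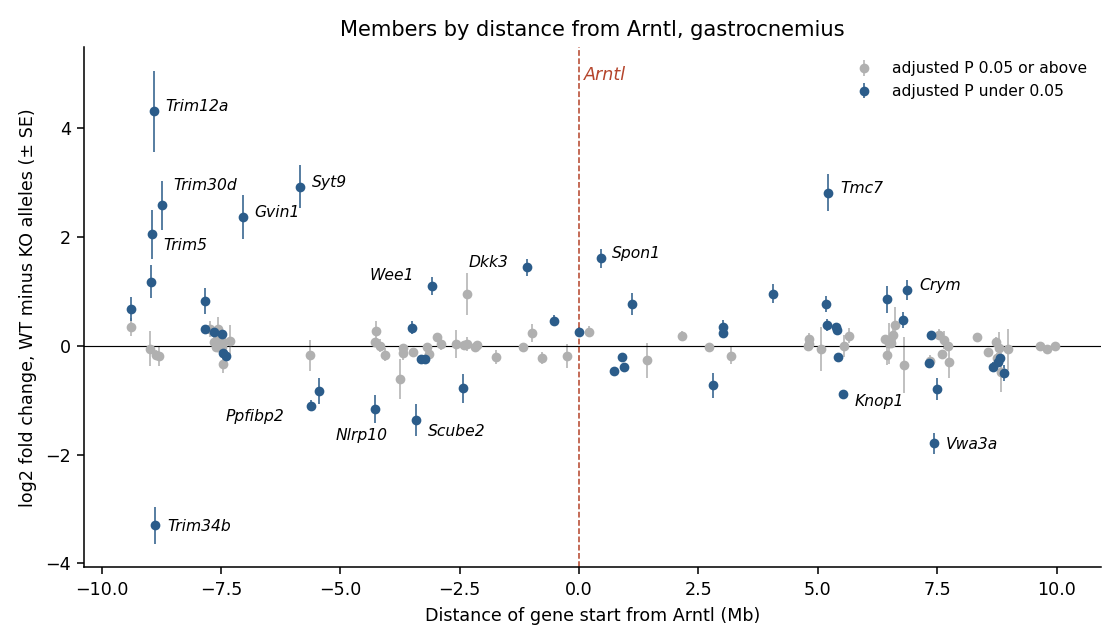
Log2 fold change between WT and KO-allele gastrocnemius (y axis, positive when higher in WT, bars ± SE from the limma model) of each of the 125 members against the distance of its start from *Arntl* in Mb (x axis, negative at lower coordinates), blue when called. The 7 members beyond 2 lie 8.94 to 5.22 Mb away from *Arntl*, 6 on the left and *Tmc7* on the right.

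The TRIM genes encode ubiquitin ligases with a tripartite motif, several of which take part in innate antiviral defense, and a cluster of them lies about 9 Mb from *Arntl*. Of the members 10 belong to this family, and 4 of them were higher in WT, 1 was lower and 5 were not called, where 27.4% of all genes were called and 13.7% were higher. Among those called, *Trim5*, *Trim30d* and *Trim34b* passed the filter only through the group where they were high and had to differ. The family's counts are thus descriptions only. The family's count was not alike in each comparison. Against KO there were 3 higher and 1 lower at 10 weeks (40%, against 8% of all genes). At 40 weeks 2 were higher and 1 lower against KO (30%, against 23.5%). Against KO+AAV there were 3 higher and 2 lower at 10 weeks (50%, against 5.15%) but 0 higher and 1 lower at 40 weeks (10%, against 12.5%). *Trim12a* (ENSMUSG00000066258, chr7:104299894-104315466) was expressed in every WT library, at 57.5, 70.4 and 95.5 normalized counts (lowest, median, highest) at 10 weeks and at 57.8, 71.4, 61.9, 79.8 and 56.3 at 40 weeks. At 10 weeks 5 of 6 KO libraries held no read of it and the KO library of replicate 1 held 80.8, and of the 7 KO+AAV libraries replicates 2 and 7 held 34.01 and 47.6 while the other 5 held 0 to 1.32. At 40 weeks the KO libraries held 0, 0, 0, 1.78 and, in replicate 5, 44.1. The KO+AAV libraries at that age held 0 and 0 in replicates 1 and 2 and 39.9, 42.7 and 20.4 in replicates 3, 4 and 5. The KO-allele values thus left a gap, with 16 libraries at 1.78 or below and 7 between 20.4 and 80.8, of which 1 fell in the WT range. The fitted log2 fold change, 4.31 ± 0.74 (SE, adjusted P = 4.0e-05), averages over this gap. It was 2.37 by edgeR (adjusted P = 0.012), but *Trim12a* was not called by DESeq2 (2.48, adjusted P = 0.10) nor with the ICBR libraries alone (4.59, adjusted P = 0.11).

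*Trim5* and *Trim30d*, neighbors in the cluster, followed the same libraries. *Trim5* (ENSMUSG00000060441, chr7:104263386-104288094), the mouse relative of a retroviral restriction factor, was at 3.03 to 16.6 in the WT libraries. Its 7 highest KO-allele values, 7.63 to 12.3, came from the 7 libraries with *Trim12a* reads above the gap, and the other 16 were at 0 to 2.81. *Trim30d* (ENSMUSG00000057596, chr7:104470014-104507849) was at 11.9 to 29.3 in WT, and at 22.7 in the KO library of replicate 1 at 10 weeks, 10.1 and 9.8 in KO+AAV replicates 2 and 7, 5.52 in KO replicate 5 at 40 weeks, and 11.1, 15.3 and 13.2 in KO+AAV replicates 3, 4 and 5. The other 16 KO-allele libraries held at most 2.53. The log2 fold changes were 2.05 ± 0.45 for *Trim5* (adjusted P = 0.00074) and 2.58 ± 0.45 for *Trim30d* (adjusted P = 5.0e-05). Both passed the filter only through the WT libraries, so these P values are descriptions only.

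*Trim34b* (ENSMUSG00000090215, chr7:104329471-104336909) went the other way. It had no read in any of the 11 WT libraries and at least 1 read in each of the 23 KO-allele libraries, with a mean of 11.4 normalized counts, which is at least 45.6-fold higher than 3 reads over the whole WT group would give. At 10 weeks the KO libraries ranged from 0.473 to 21.6 (median 18.8) and the KO+AAV libraries from 1.40 to 21.0 (median 11.4). At 40 weeks the KO libraries held 8.25, 8.95, 10.7, 17.8 and 12.4, and the KO+AAV libraries 11.2, 4.21, 1.11, 10.7 and 3.60. The 3 lowest values, 0.473, 1.11 and 1.40, came from libraries that held *Trim12a* reads above the gap. The fitted log2 fold change was -3.30 ± 0.34 (adjusted P = 4.7e-09). *Trim34b* passed the filter only through the KO-allele libraries, so this P value is a description only.

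Its paralog *Trim34a* (ENSMUSG00000056144, chr7:104244457-104262234) shares 48.6% of its 75-base words with other genes, mainly *Trim34b*, so reads of the pair could be split or lost in counting and both are uncertain. *Trim34a* was at 13.6 to 56.0 in WT and at 1.78 to 53.4 in KO-allele libraries, with 53.4 in the KO library of replicate 1 at 10 weeks against 9.22 to 16.5 in the other 5, and a log2 fold change of 1.18 ± 0.30 (adjusted P = 0.0030). The 5 members of the family that were not called had log2 fold changes of -0.16 ± 0.09 (*Trim12c*), -0.20 ± 0.17 (*Trim30a*), -0.05 ± 0.32 (*Trim6*), -0.02 ± 0.06 (*Trim3*) and -0.61 ± 0.37 (*Trim66*), with adjusted P values of 0.21 to 0.93. *Trim12c* and *Trim30a* lie between *Trim34b* and *Trim30d* in the cluster, and *Trim6* at its left edge. With 2 more TRIM genes tested outside the window, the median log2 fold change over the 12 was -0.04, against -0.01 over all genes.

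**Figure D3:**
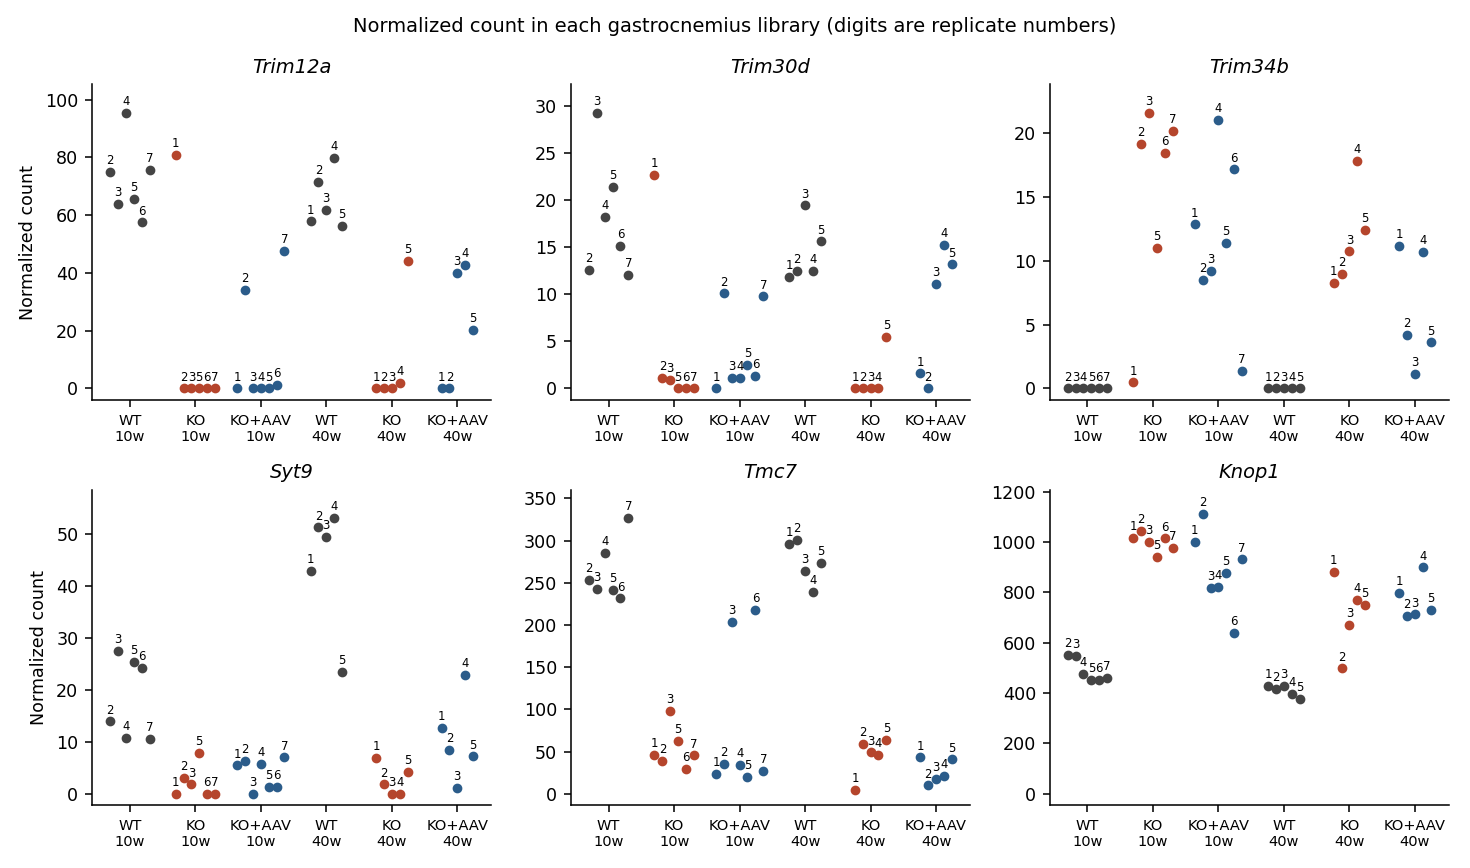
Normalized count (y axis) of 6 members in each gastrocnemius library (points, with the replicate number of the labels) of the 6 groups (x axis). *Trim12a* and *Trim30d* stayed high in the same 7 KO-allele libraries, *Trim34b* was at 0 in the 11 WT libraries, and *Tmc7* was at 4.13 to 98.1 in the KO-allele libraries except 2 at 203 and 218.

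The other tissues, which hold KO and KO+AAV libraries only, also held *Trim12a* at either of a pair of levels. In liver it was at 182 in KO replicate 4 and at 200 and 222 in KO+AAV replicates 3 and 4, and at 0 in the other 5 libraries. In heart it was at 175 and 219 in KO replicates 2 and 4 and at 187 and 221 in KO+AAV replicates 3 and 4, and at 0 in the other 4. The value of 175 belongs to the KO heart library with the high *Alb* count.

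White fat held 371 and 382 in KO replicates 1 and 4 and 328 and 424 in KO+AAV replicates 3 and 4, against at most 1.93 in the other 4 libraries. Lung held 879 in KO replicate 4 and 840 and 833 in KO+AAV replicates 3 and 4, against at most 2.73 in the other 5. *Trim34b* was present in each of the 32 libraries, and its lowest value in each tissue came from a library with high *Trim12a*. In lung it was at 229 in KO replicate 4 and at 178 and 184 in KO+AAV replicates 3 and 4, against 401 to 484 in the other 5. In liver the corresponding values were 32.7, 36.5 and 41.8, against 65.4 to 113. In heart, KO replicate 2 departed from this, with 58.3 of *Trim34b* beside its 175 of *Trim12a*, while the other 3 libraries with high *Trim12a* held 33.97 to 39.8 and the remaining 4 held 51.8 to 69.3. These are the values of single libraries, set side by side by their *Trim12a* level after it was seen. No test was run on libraries sorted in this way.

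**Figure D4:**
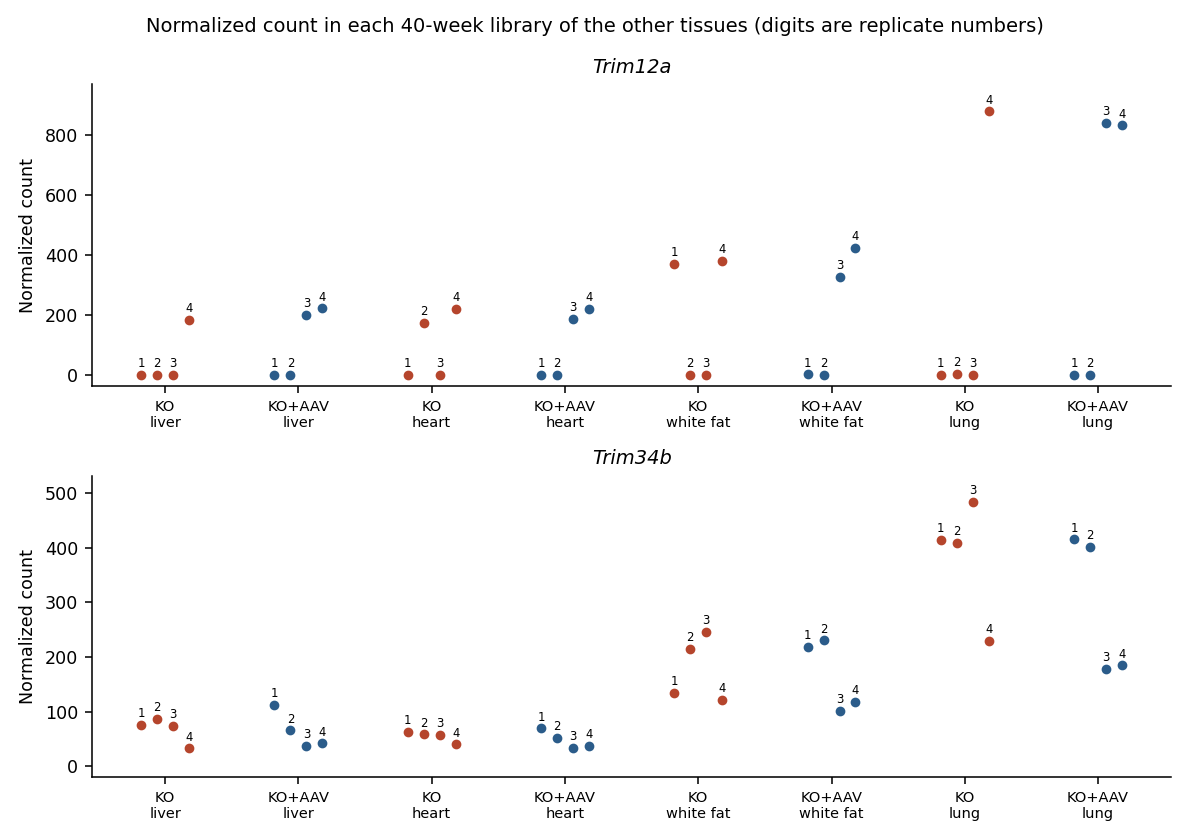
Normalized counts (y axis) of *Trim12a* (top) and *Trim34b* (bottom) in each KO and KO+AAV library (points, with the replicate number of the labels) of 4 tissues at 40 weeks (x axis). *Trim12a* was either at 0 to 2.73 or at 175 and above, and the lowest *Trim34b* value of each tissue came from a library with *Trim12a* at the upper level.

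The GFP experiment held both levels of *Trim12a* as well. *Trim12a* was at 0 in the 3 KO+GFP libraries and in KO control replicates 1 and 2, and at 26.9 in KO control replicate 3. That library also held 9.33 of *Trim5* and 12.4 of *Trim30d*, against at most 0.881 and 0 in the other 5, and it was the one with no *Trim34b* read, against 3.38 to 11.4.

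Outside the TRIM cluster 3 more members differed by more than 2 on the log2 scale. *Syt9* (ENSMUSG00000062542, chr7:107370728-107548656), a synaptotagmin that couples calcium to vesicle release, was at 10.6, 19.1 and 27.6 (lowest, median, highest) in WT and 0, 0.900 and 7.85 in KO at 10 weeks, and at 43.0, 51.4, 49.6, 53.2 and 23.4 in WT against 6.88, 1.79, 0, 0 and 4.14 in KO at 40 weeks. KO+AAV libraries reached 6.997 at 10 weeks and 22.9 at 40 weeks, so that 2 of the 23 KO-allele libraries fell in the WT range. The log2 fold change was 2.93 ± 0.40 (adjusted P = 8.7e-07). *Syt9* passed the filter only through the WT libraries and had to differ, so this P value is a description only.

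*Tmc7* (ENSMUSG00000042246, chr7:118535841-118584736), of the transmembrane channel-like family, was at 231 to 327 in the 11 WT libraries. In KO muscle it was at 29.2, 45.9 and 98.1 (lowest, median, highest) at 10 weeks and at 4.13, 59.1, 49.0, 46.4 and 63.4 at 40 weeks. KO+AAV replicates 3 and 6 at 10 weeks held 203 and 218, near the WT range, and the other 5 held 20.2 to 35.6, while at 40 weeks the KO+AAV libraries held 43.0, 9.82, 17.7, 21.4 and 40.7. WT and KO-allele libraries did not overlap (log2 fold change 2.82 ± 0.34, adjusted P = 1.3e-07). The 2 high libraries were not among those with *Trim12a* reads above the gap. *Gvin1* (ENSMUSG00000045868, chr7:106156556-106215326), an interferon-inducible large GTPase, was at 5.31 to 22.9 in WT and at 0 to 3.33 in 19 KO-allele libraries, with 8.04, 8.39, 10.6 and 18.2 in the other 4 (log2 fold change 2.37 ± 0.41, adjusted P = 3.5e-05). It shares 98.3% of its 75-base words with other genes, mainly *Gm4070*, and its counts are uncertain. *Gvin1* also passed the filter only through the WT libraries, so its P value is a description only.

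The members with the smallest P values were lower in WT. *Knop1* (ENSMUSG00000030980, chr7:118842222-118856254), which encodes a lysine-rich nucleolar protein, was at 450, 467 and 552 (lowest, median, highest) in WT at 10 weeks, 940, 1007 and 1043 in KO, and 640, 876 and 1113 in KO+AAV. At 40 weeks it was at 428, 417, 427, 397 and 377 in WT, 882, 498, 670, 771 and 749 in KO muscle and 797, 705, 712, 899 and 731 with KO+AAV. Apart from the 498 of KO replicate 2 at 40 weeks, every KO-allele library was above the highest WT library. The difference was -0.89 ± 0.07 on the log2 scale (adjusted P = 6.5e-12), with -0.90 in the Novogene and -0.89 in the ICBR libraries alone. *Knop1* overlaps *Iqck* and *Vps35l* on the other strand over 19.7% of its exon bases, and without a stated strand setting their reads cannot be told apart.

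*Ppfibp2* (ENSMUSG00000036528, chr7:107595207-107748583), a liprin-beta scaffold protein, averaged 227 ± 64 at 10 weeks in the 6 WT libraries (± SD), 426 ± 31 in the 6 of KO muscle and 369 ± 85 in the 7 of KO+AAV, and 254 ± 27, 705 ± 86 and 610 ± 101 (n = 5 each) at 40 weeks. Its log2 fold change was -1.10 ± 0.10 (adjusted P = 1.4e-10), and 2 of 23 KO-allele libraries, both KO+AAV at 10 weeks, fell in the WT range. *Vwa3a* (ENSMUSG00000030889, chr7:120739318-120805742), a protein with von Willebrand factor A domains, was at 7.41 to 34.8 in WT and at 35.3 to 207 in the KO-allele libraries without overlap (-1.79 ± 0.19, adjusted P = 5.7e-09). Its difference was -1.17 ± 0.29 between WT and KO at 10 weeks (adjusted P = 0.0084) and -2.70 ± 0.32 at 40 weeks (adjusted P = 1.8e-07).

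Among members that encode secreted or cell-cycle proteins, *Spon1*, *Dkk3* and *Wee1* were higher in WT. *Spon1* (ENSMUSG00000038156, chr7:113765998-114043370) encodes the matrix protein F-spondin and starts 0.45 Mb from *Arntl*. It was at 89.9, 121 and 220 (lowest, median, highest) in WT, 26.7, 45.1 and 62.8 in KO and 24.4, 64.2 and 85.7 in KO+AAV at 10 weeks, and at 96.5 to 172 in WT against 23.0 to 48.1 in KO and 26.6 to 46.7 in KO+AAV at 40 weeks, without overlap between WT and KO-allele libraries (1.61 ± 0.17, adjusted P = 1.4e-08). The value was 1.52 in the Novogene and 1.55 in the ICBR libraries alone.

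*Dkk3* (ENSMUSG00000030772, chr7:112116017-112159057), a secreted glycoprotein of the dickkopf family, overlapped between WT and KO-allele libraries at 10 weeks but not at 40 weeks. At 10 weeks it averaged 94.6 ± 21.3 over the 6 WT libraries (± SD), 38.1 ± 17.6 over the 6 of KO muscle and 58.4 ± 36.7 over the 7 of KO+AAV, and at 40 weeks 429 ± 36, 102 ± 14 and 154 ± 21 (n = 5 each). The log2 fold change was 1.45 ± 0.16 (adjusted P = 2.2e-08). *Wee1* (ENSMUSG00000031016, chr7:110122046-110143286), the kinase that holds back mitotic entry and a known target of the circadian clock, averaged 69.7 ± 21.3 in WT muscle, 29.6 ± 3.3 in KO muscle and 60.1 ± 19.6 with KO+AAV at 10 weeks, and 61.1 ± 14.6, 15.1 ± 7.0 and 31.5 ± 14.8 at 40 weeks (1.10 ± 0.17, adjusted P = 5.0e-06). Each of the 7 KO+AAV libraries at 10 weeks, at 39.6 to 91.0, was above the 6 KO libraries, at 24.8 to 33.0.

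**Figure D5:**
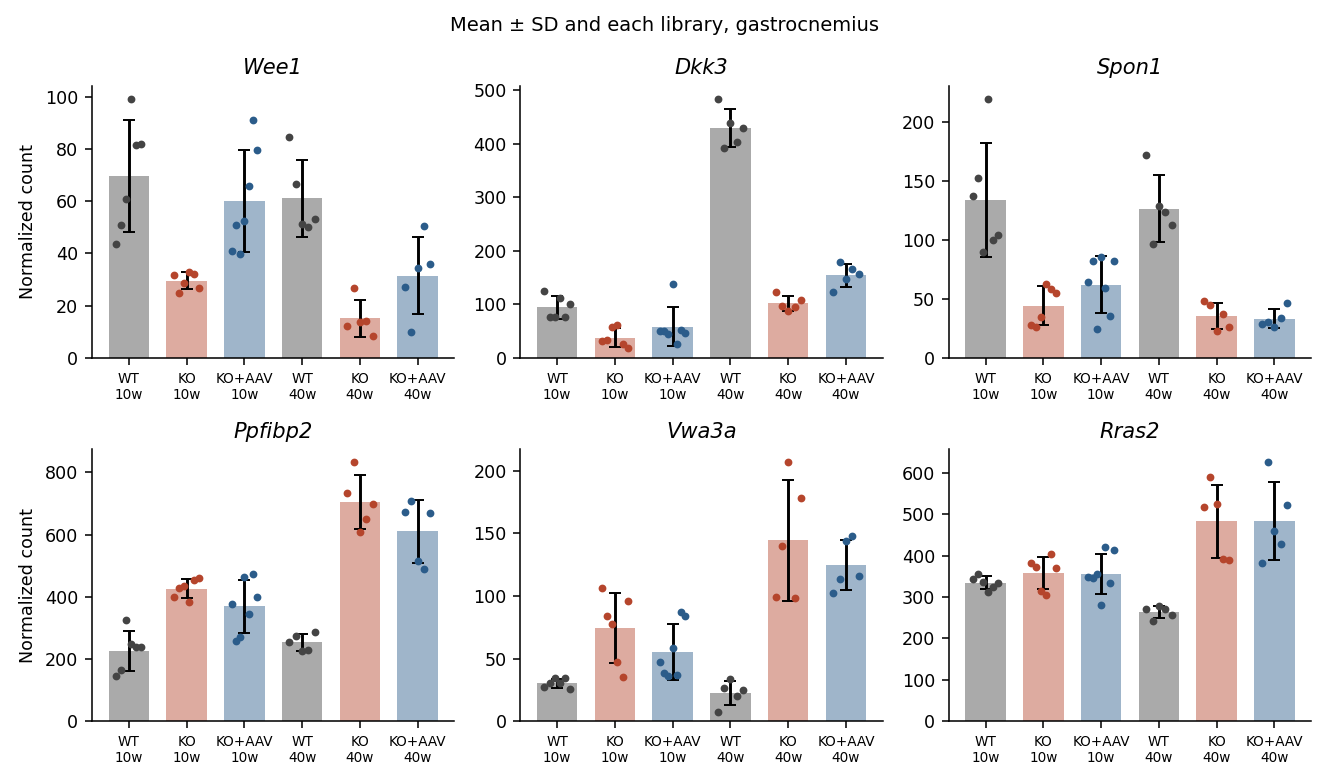
Normalized counts (y axis) of 6 members in the 6 gastrocnemius groups (x axis), with bars for the group mean, error bars for the SD and points for libraries (n = 6, 6 and 7 at 10 weeks, 5 each at 40 weeks). *Wee1* in KO+AAV at 10 weeks averaged 60.1 against 29.6 in KO, and *Rras2* at 40 weeks averaged 483 in KO and 484 in KO+AAV against 264 in WT.

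Next to *Arntl* the differences were small except in *Spon1*. On the lower side, *Rassf10* (chr7:112953962-112957457, a Ras-association domain protein) differed by -0.19 ± 0.23 (adjusted P = 0.59), *Tead1* (chr7:112679318-112906807, a transcription factor of the Hippo pathway that binds muscle gene promoters) was higher in WT by 0.46 ± 0.10 (adjusted P = 0.00056), and *Parva* (chr7:112427505-112591692, alpha-parvin of focal adhesions) differed by -0.22 ± 0.11 (adjusted P = 0.13). On the higher side, *Btbd10* (chr7:113315626-113369392), on the opposite strand with its lower end 0.0015 Mb beyond *Arntl*, was higher in WT by 0.26 ± 0.10 (adjusted P = 0.044), and *Far1* (chr7:113513834-113571511, a fatty acyl-CoA reductase) differed by 0.26 ± 0.10 (adjusted P = 0.058). *Tead1* was at 3643 to 5684 in WT libraries and 2013 to 5497 in KO-allele libraries, and 11 of the 23 fell in the WT range.

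Further out but within 1 Mb, *Rras2*, *Copb1* and *Psma1* were lower in WT. *Rras2* (ENSMUSG00000055723, chr7:114046782-114117781), a Ras-related GTPase, was at 312, 336 and 357 (lowest, median, highest) in WT at 10 weeks and within 280 to 421 in the KO-allele libraries, and at 40 weeks at 271, 243, 278, 272 and 256 in WT, 517, 591, 524, 391 and 390 in KO muscle and 383, 626, 459, 427 and 523 with KO+AAV. The groups overlapped at 10 weeks and did not at 40 weeks, and the log2 fold change over both was -0.47 ± 0.07 (adjusted P = 6.5e-06). *Psma1*, an alpha subunit of the proteasome core, differed by -0.39 ± 0.07 (adjusted P = 4.6e-05), and *Copb1*, a coat protein of Golgi vesicles, by -0.21 ± 0.05 (adjusted P = 0.0042).

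By function, members were called in both directions in 4 of 6 groups. With 5 to 14 members a group, the shares called ranged from 14.3% for ribosome and translation through 28.6% for nuclear proteins, 38.5% for muscle structure and 41.7% for lysosome and membrane traffic to 57.1% for mitochondrial proteins, against 27.4% of all genes, and the counts that follow are descriptions. The medians below stand beside -0.01 over all genes, and these counts pool the ages. At 10 weeks 0 of 7 mitochondrial members were called against KO or KO+AAV. At 40 weeks 3 were lower against KO (42.9%, against 23.5% of all genes) and 1 against KO+AAV (14.3%, against 12.5%). Of 13 for muscle structure, 1 was higher against KO at 10 weeks (7.69%, against 8%) and 0 against KO+AAV. At 40 weeks 5 were higher and 2 lower against KO (53.8%), and 2 higher and 1 lower against KO+AAV (23.1%). Of 7 genes for mitochondrial proteins, *Uqcrc2* of complex III (-0.32 ± 0.08, adjusted P = 0.0021), *Ndufab1* of complex I (-0.29 ± 0.07, adjusted P = 0.0035) and the mitochondrial ribosomal protein *Mrpl17* (-0.18 ± 0.05, adjusted P = 0.0049) were lower in WT, *Acsm3*, a medium-chain acyl-CoA synthetase, was higher (0.85 ± 0.25, adjusted P = 0.0097), and 3 were not called (median 0.06). Of 12 genes for lysosomes and membrane traffic, 2 were higher and 3 lower (median -0.07), with acid sphingomyelinase *Smpd1* at 0.26 ± 0.05 (adjusted P = 0.00021) and the clathrin adaptor *Gga2* at -0.39 ± 0.09 (adjusted P = 0.0014). Of 13 genes for muscle structure and signaling, 2 were higher and 3 lower (median -0.02), the former *Tead1* and the phosphodiesterase *Pde3b* (0.78 ± 0.20, adjusted P = 0.0037), and the latter *Rras2*, *Plekha7* and the AMP deaminase *Ampd3*.

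Of 14 genes for nuclear transport, transcription and RNA, *Wee1* and *Rrp8* were higher and *Knop1* and *Taf10* lower in WT (median -0.07). Of 7 genes for ribosome and translation 1, *Rps13*, was higher (0.23 ± 0.07, adjusted P = 0.010, median 0.06), and of 5 for proteasome and ubiquitin 1, *Psma1*, was lower (median 0.01). These lists were written with earlier results of these data known.

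Other called members spread over the window. *Crym* (mu-crystallin, which binds thyroid hormone) was at 42.2 to 87.5 in WT and 9.98 to 68.9 in KO-allele libraries (1.03 ± 0.18, adjusted P = 5.0e-05). *Xylt1*, the enzyme that starts glycosaminoglycan chains, differed by 0.95 ± 0.17 (adjusted P = 9.0e-05). Its difference from KO was 0.64 ± 0.27 at 10 weeks (adjusted P = 0.17) and 2.11 ± 0.30 at 40 weeks (adjusted P = 3.9e-06), and from KO+AAV 0.01 ± 0.26 (adjusted P = 0.99) and 1.06 ± 0.30 (adjusted P = 0.017). The change between the ages was not called by limma or edgeR for either (limma adjusted P = 0.10 and 0.28) and was called for both by DESeq2 (0.012 and 0.039), and for KO with the replicate number as a block (0.035). *Itpripl2* (0.77 ± 0.15), *Gde1*, a glycerophosphodiesterase (0.34 ± 0.06), and *Fam160a2*, of an endosome transport complex (0.31 ± 0.06), were also higher in WT, with adjusted P values of 0.00020, 3.7e-05 and 7.0e-05. *Gm5737* (-0.79 ± 0.20), the Rab exchange factor *Dennd5a* (-0.24 ± 0.05) and *Vps35l* of the retriever complex (-0.20 ± 0.05) were lower, with adjusted P values of 0.0029, 0.00074 and 0.0020.

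The 2 members described next differed between WT and KO at 40 weeks and not past the threshold at 10 weeks. *Scube2*, a secreted protein that helps to release hedgehog ligands, was at 8.90, 33.8, 19.5, 15.6 and 34.4 in WT at 40 weeks, 82.5, 140, 265, 98.2 and 106 in KO, and 59.0, 54.7, 205, 96.1 and 175 in KO+AAV. *Nlrp10*, of the NOD-like receptor family, was at 5.93, 27.6, 10.6, 10.9 and 32.8 in WT, 45.4, 39.4, 113, 127 and 74.5 in KO, and 71.7, 81.4, 179, 45.8 and 41.9 in KO+AAV. For both genes the WT libraries lay below all KO-allele libraries of that age. The log2 fold changes between WT and KO were -2.59 ± 0.49 for *Scube2* (adjusted P = 0.00023) and -2.22 ± 0.43 for *Nlrp10* (adjusted P = 0.00029) at 40 weeks, and -0.33 ± 0.45 and -0.24 ± 0.39 at 10 weeks (adjusted P = 0.78 and 0.82). The change between the ages was not called by limma. It was -2.26 ± 0.67 for *Scube2* (adjusted P = 0.13) and -1.98 ± 0.58 for *Nlrp10* (adjusted P = 0.13) with KO, and -2.06 ± 0.66 (adjusted P = 0.16) and -2.29 ± 0.58 (adjusted P = 0.054) with KO+AAV, of which that of *Nlrp10* with KO+AAV was called by DESeq2 (adjusted P = 0.0087) and edgeR (adjusted P = 0.046).

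At 40 weeks markers of satellite cells and regeneration were also lower in WT: at that age 5 of 8 were called lower and 1 higher against KO, and 4 lower and 0 higher against KO+AAV. Of all genes, 11.5% and 6.41% were called lower in these 2 comparisons. Over both ages, where 13.7% of all genes were called in each direction, 5 of the 8 markers were lower and 0 higher. Their sum at 40 weeks was 798 to 1058 in WT, 1753 to 2868 in KO muscle and 1625 to 2669 with KO+AAV, and none was at 0 throughout a gastrocnemius group. Over both ages 2 of 8 slow-fiber markers (median -1.57) and 4 of 8 endothelial markers were called lower. At 40 weeks 1 of 8 slow-fiber markers was lower against KO (median -2.77) and 1 against KO+AAV (median -0.43). Slow-fiber sums at that age were 1060 to 22912 in WT, 9451 to 139428 in KO muscle and 2943 to 30761 with KO+AAV. Of 8 endothelial markers, 2 were lower against KO and 0 against KO+AAV at 40 weeks. The part of these cell types in the results on *Scube2*, *Nlrp10*, *Rras2* and the other members was not tested. In bulk muscle fewer cells of a type and less RNA per cell cannot be told apart.

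The beta-globin genes mark the far left end of the window. *Hbb-bt* (chr7:103812524-103813996) was higher in WT by 0.68 ± 0.21 (adjusted P = 0.016) and its neighbor *Hbb-bs* differed by 0.35 ± 0.17 (adjusted P = 0.13), and the pair share 56.6% and 51.5% of their 75-base words, so their split is uncertain. Of red blood cell genes outside chromosome 7, *Hba-a1* differed by 0.65 ± 0.20 (adjusted P = 0.013), *Hba-a2* by 0.44 ± 0.23 (adjusted P = 0.17) and *Alas2* by 0.49 ± 0.22 (adjusted P = 0.097). Of 6 such genes tested, 2 were called higher in WT and 0 lower, where 13.7% of all genes were higher. The log2 fold change was positive in only 4 of the 6 (median 0.46, against -0.01 over all genes). Their summed level was 4643 to 5997 in WT, 3775 to 4547 in KO muscle and 3482 to 4858 with KO+AAV at 10 weeks. The part of blood in the globin values was not tested.

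Mice with the same allele that differ in the *Bmal1* vector were compared next. In these libraries *Arntl* RNA was not higher in KO+AAV than in KO muscle. The difference was -0.04 at 10 weeks, given above. At 40 weeks it was -0.48 (exact permutation P = 0.095), with the KO library of replicate 2 included. The paper detected BMAL1 protein in KO+AAV gastrocnemius at 10 weeks by Western blot. Between KO+AAV and KO, limma called 0 of 125 members at 10 weeks (0.204% of all genes) and 0 at 40 weeks (0.259%). At an unadjusted P under 0.05 there were 17 members at 10 weeks (13.6%, against 9.23% of all genes) and 12 at 40 weeks (9.6%, against 10.1%), and at the unadjusted 0.01 there were 7 (5.6%, against 2.63%) and 3 (2.4%, against 3.25%). *Wee1* was the member that came nearest, at 0.98 ± 0.25 (adjusted P = 0.11) at 10 weeks and 0.94 ± 0.28 (adjusted P = 0.19) at 40 weeks. It was called at 10 weeks by DESeq2 (adjusted P = 0.00078), by edgeR (0.047) and with the 2 groups fitted alone (0.026), and at 40 weeks without KO+AAV replicate 2, the library with 9.82 counts against 27.1 to 50.4 in the others (adjusted P = 0.0060). At 40 weeks DESeq2 and edgeR each called 0 members.

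For the TRIM genes and *Tmc7* the KO+AAV and KO differences were not called at either age. At 10 weeks they were 0.62 ± 1.12 for *Trim12a* (adjusted P = 0.93), -0.19 ± 0.51 for *Trim34b* (adjusted P = 0.96) and -0.02 ± 0.52 for *Tmc7* (adjusted P = 1.0). At 40 weeks they were larger in *Trim30d*, at 2.02 ± 0.78 (unadjusted P = 0.014, adjusted P = 0.35), *Trim12a*, at 1.65 ± 1.27 (adjusted P = 0.71), and *Trim34b*, at -1.05 ± 0.58 (adjusted P = 0.57), and -0.50 ± 0.59 in *Tmc7* (adjusted P = 0.83). The 3 KO+AAV libraries of that age with *Trim12a* reads above the gap, against 1 of KO, enter these values. The 10-week comparison was -0.20 ± 0.10 for *Knop1* (adjusted P = 0.55), -0.22 ± 0.14 for *Ppfibp2* (adjusted P = 0.68) and 0.46 ± 0.26 for *Spon1* (adjusted P = 0.62).

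The GFP experiment and the other tissues were filtered on their own values, so that the genes counted there are those of the same window with a mean above 5 in those libraries. In the GFP experiment, 3 of 107 such genes were called between KO+GFP and KO control (2.8%, against 3.09% of all genes), and 8 were at an unadjusted P under 0.01 (7.48%, against 8.24%). *Itpripl2* was at 90.0, 120 and 115 with GFP and 48.6, 68.2 and 46.6 without (0.99 ± 0.19, adjusted P = 0.017), the lymphatic endothelial receptor *Lyve1* at 36.0, 20.7 and 29.96 against 11.9, 5.68 and 2.07 (2.18 ± 0.49, adjusted P = 0.033), and *Sbf2*, a myotubularin-related protein, at 149, 131 and 134 against 90.3, 98.9 and 83.9 (0.59 ± 0.14, adjusted P = 0.038). *Sbf2* was also called by edgeR (adjusted P = 0.025), but not by DESeq2 (adjusted P = 0.057) nor with the replicate number as a block (adjusted P = 0.053). The summed markers of 5 cell types did not overlap between the 3 libraries with GFP and the 3 without, which is a description only. Macrophage markers were at 669 to 957 with GFP and 270 to 417 without, slow-fiber markers at 10732 to 14448 against 1331 to 6741, adipocyte markers at 8165 to 11103 against 4365 to 6045, Schwann cell markers at 436 to 549 against 1091 to 1286, and skeletal muscle markers at 908816 to 952554 against 1084070 to 1291650. The sums overlapped for endothelial cells (2915 to 3245 against 2943 to 3164) and for satellite cells and regeneration (769 to 803 against 722 to 823). Those of red blood cells overlapped too (1694 to 2007 against 1984 to 2297). The part of cell types in these values was not tested. Leaving out KO+GFP replicate 2 or 3 or KO control replicate 3 left 0 called genes.

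Between KO+AAV and KO, 0 genes of the window were called by limma in liver (of 123), heart (of 134) and white fat (of 153), where it called 0% of all genes, and 0 in lung (of 145), against 0.0237% of all genes. At an unadjusted P under 0.05 there were 2 of them in liver (1.63%, against 3.32% of all genes), 1 in heart (0.746%, against 1.28%), 1 in white fat (0.654%, against 1.04%) and 29 in lung (20%, against 11.9%). In lung 7 were under 0.01 (4.83%, against 3.96%). DESeq2 called 6 in lung (4.14%, against 2.99% of all genes) and 0 in the other 3 tissues, and edgeR 0 in each of the 4. *Arntl* RNA, not a member, was not called by limma in any of these tissues. Its KO+AAV minus KO difference was 0.58 in liver (limma, unadjusted P = 0.0023, adjusted P = 0.997) and 0.32 in heart (adjusted P = 0.86). It was -0.01 in white fat (adjusted P = 0.99) and 0.13 in lung (adjusted P = 0.58).

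The difference between WT and the KO groups changed with age for few members. For WT and KO, 1 member was called in the interaction (0.8%, against 0.37% of all genes), and for WT and KO+AAV 2 were (1.6%, against 0.642%). At an unadjusted P under 0.01 there were 7 (5.6%, against 4.47%) and 6 (4.8%, against 4.12%). *Rras2* fell by 0.76 ± 0.17 on the log2 scale from the 10-week to the 40-week difference of WT and KO (adjusted P = 0.029) and by 0.77 for WT and KO+AAV (adjusted P = 0.018). *Vwa3a* fell by 1.79 for WT and KO+AAV (adjusted P = 0.038), but was not called by edgeR (adjusted P = 0.061), without a filter (0.072), without the site term (0.055) or with the Novogene libraries alone (0.70). The *Rras2* interaction with KO was not called without a filter (adjusted P = 0.056), with the Novogene libraries alone (0.41) or without KO replicate 2 at 40 weeks (0.066), a library chosen for leaving out after its *Arntl* level was seen. That with KO+AAV was not called with the Novogene libraries alone (adjusted P = 0.70).

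BMAL1 binds, with CLOCK, the E-box letters CACGTG. Promoter windows of 250 bases before to 50 after the RefSeq start site (GRCm38.p6) were found for 94 of 125 members, and 12 of them (12.8%) held CACGTG, which reads the same on both strands, against 8.09% of the 27025 promoters in the table. Among called members 3 of 38 held it (7.89%) and among members not called 9 of 56 (16.1%). The 3 were *Akip1*, *Ampd3* and *Gga2*, and their windows are shown with the E-box in capitals because they are the called members that hold the letters. *Akip1* (7:109703595-109703630, plus strand) starts its motif 68 bases, *Ampd3* (7:110772511-110772546, plus strand) 78 bases and *Gga2* (7:122021179-122021214, minus strand) 1 base before the start site.
Akip1: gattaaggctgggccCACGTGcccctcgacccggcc
Ampd3: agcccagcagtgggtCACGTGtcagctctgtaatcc
Gga2: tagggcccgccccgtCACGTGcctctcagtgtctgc
*Akip1*, which encodes a protein that binds protein kinase A, was higher in WT (0.33 ± 0.12, adjusted P = 0.040) and *Ampd3* (-0.78 ± 0.26, adjusted P = 0.023) and *Gga2*, given above, were lower. The letters describe the sequence of these windows and say nothing of whether BMAL1 bound there.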

How the data were processed

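RNA-Seq was performed on 72 mouse libraries. Per the labels and methods, the authors aligned reads with HISAT2 to GRCm38, counted them on genes with HTSeq and divided the counts by one DESeq2 size factor per library. The deposited values are this signal, the normalized count, and whole reads were recovered for 100% of values in each library (tolerance 0.01). The annotation release and strand setting are not given in the sources used here. Coordinates, overlaps and 75-base words shared between genes were taken from GRCm38 and GENCODE vM21, which held 55141 of the 55401 gene identifiers.

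Main tests used limma 3.58.1 in R 4.3.3 on log2(normalized count + 1) for genes with a mean above 5. Fold changes are on this scale, which understates those of low genes. The 34 gastrocnemius libraries entered one model with 6 groups and sequencing site. The GFP experiment and each other tissue were fitted separately, since size factors recomputed within each of them equaled the deposited ones (ratio 1), so that levels are not compared across tissues. P values were adjusted by Benjamini-Hochberg over all genes. *Arntl* was compared with exact permutation tests. The scripts were tested on simulated data. Alternatives used DESeq2 1.42.0 and edgeR 4.0.16 on recovered reads, other filters, pseudocounts, sites and windows, and left-out libraries.

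Members and gene lists were chosen with earlier results of these data known. Members named are the 30 with the smallest adjusted P, the 3 nearest *Arntl* on each side, up to 4 examples a list, those called between KO+AAV and KO, with GFP, in other tissues or in an age difference, *Hba-a1*, *Hba-a2* and *Alas2*, and members without overlap. The rule asked for values in every group for the 30, which are given here only for those described at length. *Trim* members that were not called, *Akip1* and *Alb* were named after their values were seen. Of the members, 21 overlap genes on the other strand over more than 10% of exon bases and 28 share more than 10% of their words with other genes. Figures were drawn with matplotlib 3.10.9.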

Additional observations from a re-analysis of the deposited data

Results flagged for a closer look

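In groups of 4 to 10 libraries, a library whose value stood far outside the rest of its group by Dixon's criterion was looked for among the named members. This gave 24 values in 202 groups, where chance alone gives about 1 in 20 groups.

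In the KO libraries at 10 weeks, replicate 1 stood apart for 5 members, with 80.84 normalized counts of *Trim12a* (others 0), 12.29 of *Trim5* (others 0), 22.69 of *Trim30d* (others at most 1.127), 53.42 of *Trim34a* (others at most 16.52) and 8.036 of *Gvin1* (others at most 2.249). In the KO libraries at 40 weeks, replicate 5 stood apart for 4 of the same members, with 44.13 of *Trim12a* (others at most 1.785), 8.274 of *Trim5*, 5.516 of *Trim30d* and 1.379 of *Gvin1*. The *Gvin1* value (others 0) is near the counting floor. In the same group, replicate 1 held 4.127 of *Tmc7* (others at least 46.4), and replicate 2, the library with the high *Arntl* count, held 1728 of *Psma1* (others at most 1278) and 66.26 of *Btbd10* (others at least 124.9).

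In the KO+AAV libraries at 10 weeks, replicate 4 was the highest for *Dkk3* (138.9), *Itpripl2* (413.1), *Scube2* (195.1), *Dennd5a* (1571) and *Parva* (638.0), and replicate 6 for *Tead1* (4955) and *Gm5737* (32.99). At 40 weeks, KO+AAV replicate 2 stood apart for *Psma1* (2013) and *Itpripl2* (67.37), replicate 3 for *Nlrp10* (178.6) and replicate 1 for *Dennd5a* (1009). One WT value stood apart, *Gga2* in replicate 2 at 10 weeks (372.6, others at most 323.1).

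The difference from WT changed between the ages for *Rras2* (-0.7592 on the log2 scale against KO and -0.7662 against KO+AAV) and for *Vwa3a* (-1.7869 against KO+AAV), each by the interaction term of the limma model.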

How the results depend on the processing

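Counts of called members moved with the setting. Between WT and all KO-allele libraries, 53 members became 34 with Novogene and 6 with ICBR libraries alone, 56 with DESeq2 (44.8%, against 29.8% of all genes) and 54 with edgeR (43.2%, against 27.1%), and in windows of 5 and 20 Mb they were 19 of 50 (38%) and 106 of 330 (32.1%), against 27.4%. In the 5 and 20 Mb windows the counts at 10 weeks were 5 (10%) and 42 (12.7%) for WT and KO, against 8% of all genes. For WT and KO+AAV they were 3 (6%) and 29 (8.79%), against 5.15%. At 40 weeks they were 17 (34%) and 90 (27.3%) for WT and KO, against 23.5%. For WT and KO+AAV they were then 11 (22%) and 52 (15.8%), against 12.5%. The age difference of WT and KO gave 2 in 20 Mb (0.606%, against 0.37%). That of WT and KO+AAV gave 1 (2%) and 4 (1.21%), against 0.642%. At 10 weeks the 20 members of WT and KO became 12 with a mean above 50 (13.3%, against 10.6%), 7 with Novogene, 5 with ICBR and 31 with the 2 groups alone, and the 16 of WT and KO+AAV became 10 without a filter (5.95%, against 2.09%), 9 with a mean above 50 (10%, against 6.95%), 3 with Novogene and 2 with ICBR. Between KO+AAV and KO at 10 weeks, DESeq2, edgeR and the 2 groups alone each called 1 (0.8, 0.8 and 0.84%, against 0.909, 0.296 and 0.243%). For the age difference of WT and KO, DESeq2 called 3 (2.4%, against 1.27%), and no filter and Novogene alone 0. For that of WT and KO+AAV, DESeq2 called 4 (3.2%, against 1.44%) and no filter 1 (0.595%, against 0.222%). No site term gave 1 (0.8%, against 0.358%) and Novogene alone 0. DESeq2 called 6 in lung. At an unadjusted 0.01 there were 7 and 3 for KO+AAV and KO at 10 and 40 weeks, 7 and 6 for the age differences, 8 with GFP and 7 in lung.

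Leaving out one library at a time gave 36 to 44 for WT and KO and 22 to 28 for WT and KO+AAV at 40 weeks, 0 to 1 for KO+AAV and KO at 40 weeks (*Wee1* without KO+AAV replicate 2, *Gm5901* without KO replicate 4), 0 to 3 with GFP, and, for libraries chosen after seeing the data, 0 to 1 for the age difference of WT and KO, 15 for WT and KO at 10 weeks without KO replicate 1, and 53 to 57 over all. Of 458 alternative values for 34 named members, 407 kept direction and side of the threshold, 44 fell short of it, 3 passed it and 4 reversed, namely *Rras2* (0.0152), *Scube2* (0.0081) and *Nlrp10* (0.19) with ICBR libraries alone, which are all from 10 weeks, and *Rassf10* (0.042) with 40-week libraries alone. The causes were not tested. The ICBR libraries alone were chosen after seeing the data.

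Replicate numbers were not treated as pairs. Deviations of same-numbered libraries correlated above 0.1 for 2 of 17 pairs at 10 weeks and 3 of 15 at 40 weeks. Their mean r was -0.031 at 10 weeks, against 0.004 for other pairs. At 40 weeks it was 0.064 (highest 0.366), against -0.015. These values cannot exclude pairing. With the replicate number as a block, 58 members were called between WT and the KO alleles (46.4%, against 29.1% of all genes). Against KO and KO+AAV they were 20 (16%, against 9.02%) and 14 (11.2%, against 6.60%) at 10 weeks. At 40 weeks they were 43 (34.4%, against 25.3%) and 32 (25.6%, against 14.1%). For each age difference there were 2 (1.6%, against 0.630% with KO and 1.03% with KO+AAV). Genes with few reads, such as *Trim34b* and *Syt9*, are limited by depth, and intervals beyond the replicate spread were not set.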
